A study of Rattus norvegicus with 80 samples.

Results

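Rat lungs were compared early and late after a single instillation of cellulose nanofibrils into the trachea, to see which early differences in gene expression faded, which persisted and which appeared late. The comparison used 24 of the 80 arrays of the series, taken by their titles. They were the arrays of CNF1, CNF2 and CNF3, which are 3 preparations of fine cellulose fibres, at 2.0 mg/kg and the vehicle array of the same material and day, on days 1 and 3 (early) and days 30 and 90 (late). The remaining arrays held lower doses, day 7 and MWCNT, multi-walled carbon nanotubes. All rats were male Sprague-Dawley (Crl:CD[SD]), an outbred strain, bought at 7 weeks of age. Vehicle rats received distilled water with preservatives. RNA of the perfused right lungs was labelled with Cy3 and read on Agilent one-colour arrays.

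Each exposed array was set against its own vehicle, which gave 6 early and 6 late differences on the log2 scale, where 1 stands for a 2-fold difference. A group held 1 array. The protocol named 4 rats per group and time, and nothing in the labels tells if the RNA on an array came from 1 rat or from a pool. The array labels gave the dose in mg/kg, whereas the treatment protocol named 1 mg/kg and suspensions of up to 2.0 mg/mL, and the label is followed here. P-values below therefore measure the spread of the 12 differences around their material and period, which may be technical in part. The deposited values were centred on each probe and held no signal level, so the level of lung markers could not be checked, nor could a gene be called detected or undetected. In whole lung, fewer cells of a type and less RNA per cell cannot be told apart.

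Fibres that reach the alveoli are taken up by macrophages, which release cytokines and chemokines that draw in neutrophils, monocytes and eosinophils. The airway lining answers with mucus, antimicrobial proteins and oxidant-producing enzymes, and dividing cells replace those lost. Where a material cannot be digested, macrophages stay loaded, enlarge their lysosomes, store lipid and may fuse into giant cells.

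The promoters of the genes that lead each pattern are shown first, so that their upstream sequences can be set side by side. They are the 250 bases before the transcription start, from RefSeq, build GRCr8. Of the leading named genes, 9 of 10 that faded from high, 6 of 6 that persisted high and 4 of 6 that grew high had an entry, and the first 3, 3 and 2 are printed. Capitals mark matches on either strand to an AP-1 motif (TGANTCA), an E-box (CACGTG) or the E-box kind bound by MITF and TFEB (TCANGTG, which can overlap CACGTG). They also mark a loose form of the metal response core (TGCNCNC, any base at N), the NF-kB motif and the motif of the TATA box (TATAAA). Acod1, Il24 and Orm1 faded from high.
Acod1 (chr15:86286289-86286538, plus strand): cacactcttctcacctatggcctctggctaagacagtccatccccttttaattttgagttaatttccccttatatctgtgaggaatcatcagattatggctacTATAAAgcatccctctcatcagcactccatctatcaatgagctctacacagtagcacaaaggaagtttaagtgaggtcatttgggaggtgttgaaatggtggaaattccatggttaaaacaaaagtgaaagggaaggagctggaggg
Il24 (chr13:44910761-44911010, minus strand): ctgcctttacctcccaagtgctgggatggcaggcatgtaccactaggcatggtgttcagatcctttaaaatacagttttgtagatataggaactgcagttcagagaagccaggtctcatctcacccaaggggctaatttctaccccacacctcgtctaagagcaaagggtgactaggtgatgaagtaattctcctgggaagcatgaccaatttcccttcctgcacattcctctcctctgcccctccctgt
Orm1 (chr5:81788259-81788508, plus strand): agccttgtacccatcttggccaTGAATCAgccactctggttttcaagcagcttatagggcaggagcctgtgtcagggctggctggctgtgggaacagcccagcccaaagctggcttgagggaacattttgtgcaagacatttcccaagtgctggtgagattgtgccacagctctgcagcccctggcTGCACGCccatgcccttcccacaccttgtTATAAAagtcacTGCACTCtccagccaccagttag
Spp1, Slc13a3 and Mmp12 persisted high.
Spp1 (chr14:5619805-5620054, minus strand): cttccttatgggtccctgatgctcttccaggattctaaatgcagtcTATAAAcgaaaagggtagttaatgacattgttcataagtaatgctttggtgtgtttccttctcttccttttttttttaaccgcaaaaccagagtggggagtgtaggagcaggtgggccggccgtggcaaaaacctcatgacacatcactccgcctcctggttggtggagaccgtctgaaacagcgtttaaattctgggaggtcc
Slc13a3 (chr3:174623894-174624143, minus strand): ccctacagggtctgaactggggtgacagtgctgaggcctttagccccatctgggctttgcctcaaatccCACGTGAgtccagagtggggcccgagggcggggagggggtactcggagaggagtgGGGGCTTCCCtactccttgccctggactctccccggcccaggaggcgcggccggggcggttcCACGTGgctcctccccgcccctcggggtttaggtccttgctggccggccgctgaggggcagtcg
Mmp12 (chr8:12866402-12866651, plus strand): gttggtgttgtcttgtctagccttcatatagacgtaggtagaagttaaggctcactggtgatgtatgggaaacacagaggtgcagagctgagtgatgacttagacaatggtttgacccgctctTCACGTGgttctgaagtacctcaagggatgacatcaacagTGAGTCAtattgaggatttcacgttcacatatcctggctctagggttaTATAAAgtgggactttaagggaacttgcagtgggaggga
Mt3 and Mlana grew.
Mt3 (chr19:10856081-10856330, minus strand): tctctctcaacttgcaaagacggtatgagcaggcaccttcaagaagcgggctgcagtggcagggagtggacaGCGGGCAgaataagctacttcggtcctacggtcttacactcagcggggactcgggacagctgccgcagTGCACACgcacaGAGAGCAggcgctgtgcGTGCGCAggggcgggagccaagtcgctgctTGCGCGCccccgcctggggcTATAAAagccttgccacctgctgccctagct
Mlana (chr1:236882825-236883074, plus strand): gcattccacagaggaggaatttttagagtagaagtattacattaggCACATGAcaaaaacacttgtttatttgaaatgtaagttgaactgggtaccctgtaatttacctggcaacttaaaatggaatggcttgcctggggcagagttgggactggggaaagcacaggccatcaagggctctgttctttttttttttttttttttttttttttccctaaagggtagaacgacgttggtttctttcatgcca

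The Mt3 window held 5 matches to the loose metal response pattern and a TATA motif that ended 26 bases before the start. Of these matches, GCGGGCA and GAGAGCA would not fit the narrower TGCRCNC, where R is A or G. The window of Orm1, which faded, held TGCACGC and TGCACTC, which fit the narrower form too. The Mlana window held 1 match to the MITF and TFEB kind of E-box, from 204 to 198 bases before the start. Mmp12 and Slc13a3 each held 1 match of that kind joined with a CACGTG, and Slc13a3 carried another CACGTG and the NF-kB match. The Il24 window held none of these letters. Among all 27457 promoters, 43.9% held the loose metal response pattern, 11.5% the MITF and TFEB kind, 5.79% CACGTG, 6.36% AP-1, 13.1% TATAAA and 3.52% NF-kB. The MITF and TFEB kind was held by 9.25% of 1287 promoters of genes that faded from high, 16% of 244 that persisted high and 18.5% of 54 that grew high, against 11.2% of the 13147 array genes with an entry. For AP-1 the shares were 4.9% (faded from high), 10.7% (persisted high) and 3.7% (grew high), against 5.31% of those array genes. For TATAAA the shares were 7.69%, 10.2% and 18.5% in the same order, against 10.6%. The MITF and TFEB kind was thus not the only motif with unequal shares, and no difference in shares was tested. These matches describe letters, and no binding was measured.

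The response as a whole was smaller late than early. Its size, taken as the SD over 15925 genes of a difference, was 0.646 ± 0.189 early and 0.435 ± 0.013 late (SD, n = 6 each). For CNF1 it was 0.744 and 0.934 on days 1 and 3, then 0.430 and 0.424 on days 30 and 90. CNF2 had 0.501 and 0.732 early and 0.438 and 0.427 late. CNF3 had 0.527 and 0.435 early and 0.460 and 0.434 late, so its day 3 lay within the range of the late values. The late minus early difference was -0.21 (two-sided exact permutation test within materials over all arrangements of the days, p = 0.0185, the smallest possible being 0.00926). Without CNF1 it was -0.109.

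**Figure D1:**
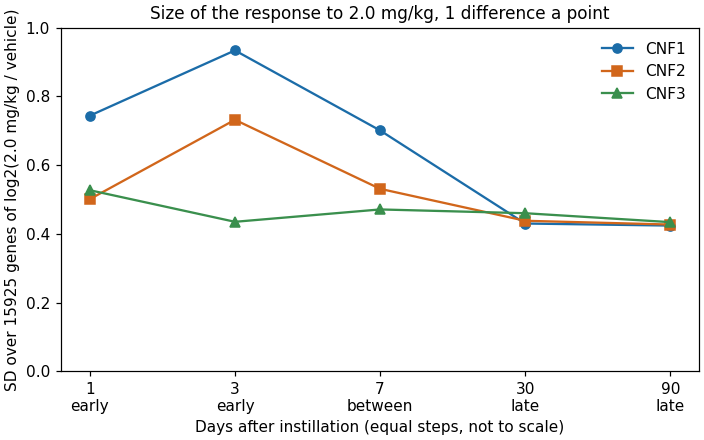
Size of the response to 2.0 mg/kg by day (equal steps), as the SD over 15925 genes of the log2 difference from the own vehicle, 1 point per pair of arrays, with lines joining CNF1, CNF2 and CNF3. The 6 late points lie between 0.424 and 0.460, and CNF1 stands highest on days 1, 3 and 7.

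The early CNF1 pairs stood apart from the others. Their day 1 and day 3 differences had a correlation of 0.20 across genes, which are not independent replicates, against 0.70 for CNF2 and 0.54 for CNF3. Between days 30 and 90 it was 0.23 for CNF1, 0.44 for CNF2 and 0.58 for CNF3. A low correlation was thus a trait of CNF1 in both periods and not of its early pairs only. The 27 spike-in and negative spots, which hold no rat sequence, differed from vehicle by a median of 1.51 on day 1 and -0.85 on day 3 for CNF1, against 0.13 to 0.66 for the other early pairs and -0.08 to 0.68 late. The model used for the genes was also fitted to these spots with limma. There 9 of the 27 passed for the early effect, 9 for the change and 0 for the late effect. Before adjustment these numbers were 10, 10 and 0. Among the 15925 genes, 7380 passed for the early effect, 2674 for the change and 918 for the late effect. A larger share of spots than of genes thus passed for the change, and a smaller share for the early and late effects. With the first factor of these spots as a covariate, the fit described next called 3644 genes for late minus early, among them all 2674 called without it. Without CNF1 on day 1 or on day 3, settings chosen after seeing the data, it called 2404 and 2901.

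A linear model over the 12 differences (limma, Benjamini-Hochberg adjusted p under 0.05 over all 15925 genes) called 7380 genes early, 24.8% of all genes higher and 21.6% lower, and 918 late, 3.16% higher and 2.6% lower. Late minus early was called for 2674 genes, 6.59% higher and 10.2% lower. Of these calls 39.3% were higher, and 49.4% of 1264 under quantile normalization. Of the late calls 54.9% were higher, and 42.2% of 2146 under quantile normalization. A gene is said to have faded where the early effect and an opposite change were called without a called late effect on the other side, 9.7% of all genes from high and 5.95% from low. Of these 2493 genes, 2427 were no longer called late and 66 were reduced but still called. A gene persisted where it was called on the same side early and late without a called change, 2% of all genes high and 1.72% low. It grew where the late effect and a change in the same direction were called, 0.408% high and 0.182% low. A further 22 genes were called on opposite sides early and late. Counts within the gene lists below are to be read against these shares of all genes, above all the 24.8% higher and 21.6% lower early.

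The number of calls depended on which arrays were left out. Late minus early was called for 1 gene without CNF2, 4 without day 30 and 1 without day 90. It was called for 70 without CNF1, 582 without day 1, 1206 without CNF3 and 2710 without day 3. In each of these fits all 2674 genes had the sign they have in the full fit. Of the 112 calls on named genes, 1 remained without CNF2, 3 without day 30, 2 without day 90, 25 without CNF1, 47 without day 1, 66 without CNF3 and 102 without day 3, and none changed sign. Each of these fits reuses most of the differences by which the genes were called, which favours the same sign. The kept signs are thus description and no separate evidence. With day 7 counted as early, 78 of the 112 calls remained. The calls described below that were lost then were those on Orm1, Ccl24, Wfdc18, Ccl20, Tnf, Il6, Il13ra2, Cxcr2, Cxcl10, C1r, RT1-Bb, Reg3g, Nos2, Gpx2, Sod2, Timp1, Slc39a14, Akap5, Cd4, Prg2, Adgre1, Tsc22d3, Siglech and Klk1b3 and, among genes that rose, on Fabp4, Apoe, Acp5, Hexa, Lipa, Glt6d1, Fcer1a and Cpa3. At the threshold, Igbp1 was just inside with a change of 0.38 and Nfxl1 just outside with 0.32, both with an adjusted p of 0.05.

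**Figure D2:**
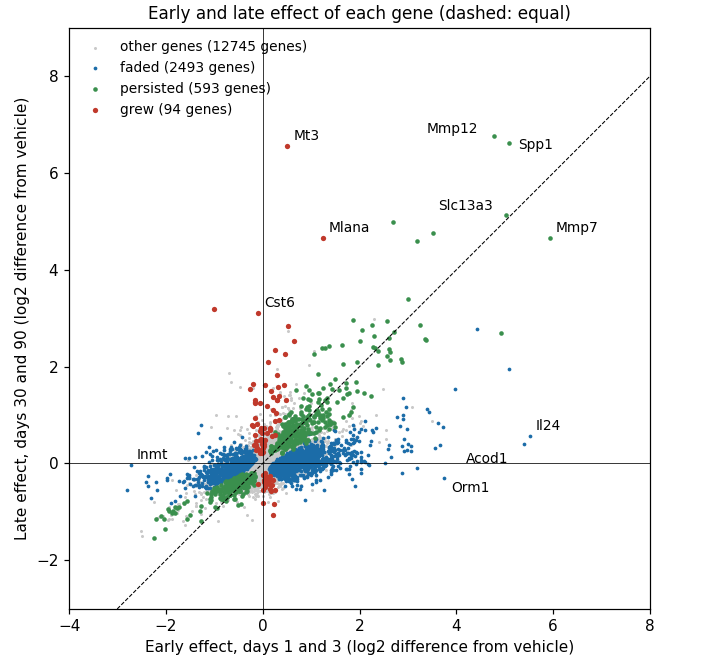
Early effect (horizontal) against late effect (vertical) of each gene, both as mean log2 difference from vehicle, coloured by pattern. Genes that faded lie along the horizontal axis with Il24 (5.52 early, 0.56 late) at the far right, genes that persisted lie near the dashed line of equality or toward Mmp12 (4.77, 6.76), and Mt3 (0.51, 6.56) is the highest gene that grew.

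Day 7 was not used in these fits. Of the 1545 genes that faded from high, 1162 (75.2%) were above vehicle in all 3 materials on day 7, and their median went from 0.62 early through 0.35 to 0.05 late. Of all genes, 26.1% were above vehicle in all 3. Genes that faded from low had medians of -0.55, -0.33 and -0.07, and 775 of 948 (81.8%) were below vehicle in 3 of 3, against 27.9% of all genes. On day 7 the faded genes thus stood between their early and late medians on both sides.

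Genes that persisted high had medians of 0.78 early, 0.88 on day 7 and 0.75 late, and 300 of 319 were above vehicle in every material on day 7. Those that persisted low had -0.50, -0.42 and -0.42. Genes that grew high had 0.01, 0.59 and 0.79, and 50 of 65 were above vehicle in all 3 on day 7. Genes that grew low had 0.09, -0.17 and -0.36, and 13 of 29 were below in all 3. The change between the periods was larger in the exposed arrays than in the vehicles for 98.5% of the genes faded from high and for 65 of 65 that grew high, against 77.4% of all genes. These genes were chosen by the exposed minus vehicle change in the same arrays. The choice itself favours such shares, so they describe the genes and are no separate evidence.

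Most named genes were picked by the size or the p of their change in these same differences. That choice favours periods that do not overlap, and the share of all genes without overlap was not computed. Overlap is therefore given below as description only. Among the named genes, Acod1 and Il24 had the largest falls. Acod1, which makes the antibacterial metabolite itaconate in activated macrophages, ranged from 2.22 to 6.83 with a median of 6.01 early, and from -1.13 to 1.76 with a median of 0.44 late. Every early difference lay above every late one, and the lowest early value was CNF3 on day 3. The change was -4.99 ± 0.79 (SE; limma, adjusted p = 0.0073). Il24, an interleukin 10 family cytokine, ranged from 3.92 to 6.32 early (median 5.6) and from -0.26 to 1.15 late (median 0.66). Its periods did not overlap either, and the change was -4.95 ± 0.40 (adjusted p = 0.0019). On day 7 Il24 stood at 4.80, 3.49 and 2.56 for CNF1, CNF2 and CNF3.

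Slc13a3, a dicarboxylate carrier that also moves itaconate in human cells, gave another pattern than Acod1. Its early differences ranged from 2.76 to 7.71 (median 4.64) and its late ones from 2.72 to 6.97 (median 5.28), with a change of 0.12 ± 0.94 (adjusted p = 0.96). The ranges overlapped almost fully. By material the change was -2.3 for CNF1, -0.13 for CNF2 and 2.79 for CNF3, so the mean near 0 averaged changes in opposite directions. Of 10 itaconate and glycolysis genes, 8 were higher early and 4 late, and 3 fell, with a median change of -0.34 against -0.03 over all genes. Nos2, the inducible nitric oxide synthase, went from a median of 1.88 early to 0.16 late (change -1.70 ± 0.38, adjusted p = 0.018). Hk2, a hexokinase, had a change of -1.06 ± 0.24 (adjusted p = 0.018), and Hk3, another hexokinase, persisted with effects of 2.56 early and 2.21 late.

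**Figure D3:**
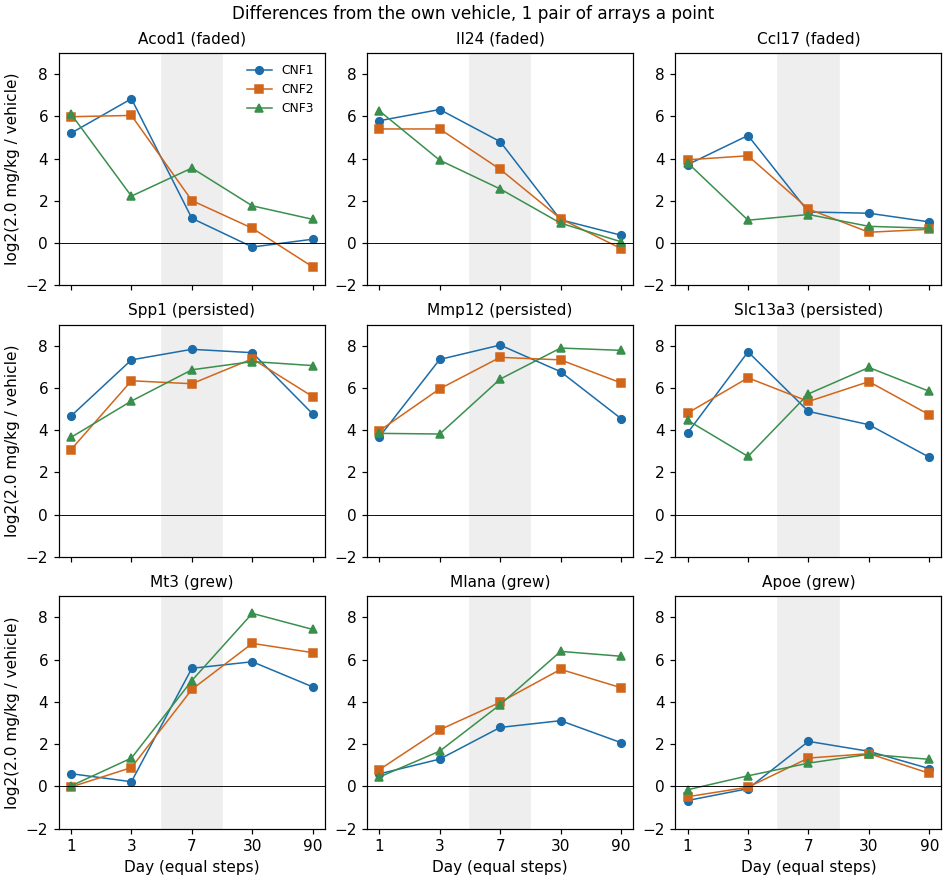
Log2 difference from the own vehicle by day (equal steps; day 7 shaded, not in the fit) for 3 faded, 3 persisting and 3 grown genes, 1 point per pair of arrays and 1 line per material. Acod1, Il24 and Ccl17 lie between -1.13 and 1.76 on days 30 and 90, while Mt3 stays at or below 1.34 on days 1 and 3 and lies between 4.71 and 8.19 late.

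Of 8 ligands of eosinophils, Th2 and dendritic cells, 4 were higher and 2 lower early, 1 was lower late, and 4 fell and 1 rose between the periods (median change -0.75). Ccl24, an eosinophil attractant, ranged from 0.61 to 4.96 early (median 3.64) and from -0.43 to 0.76 late (median -0.29), with a change of -3.28 ± 0.57 (adjusted p = 0.0097). The periods overlapped only through the lowest early value, CNF3 on day 3. Ccl17, a ligand of the Th2 receptor Ccr4, ranged from 1.08 to 5.09 early (median 3.87) and from 0.51 to 1.41 late (median 0.74), with a change of -2.78 ± 0.47 (adjusted p = 0.0089). CNF3 on day 3 was again the low early value, and it lay within the late range. Ccl20, which attracts dendritic cells, went from a median of 0.61 to -0.33 (change -1.06 ± 0.22, adjusted p = 0.016).

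Of 8 monocyte-attracting CC chemokines, 6 were higher early and 4 late, with medians of 2.38 early, 1.85 on day 7 and 0.99 late, and 3 fell and 1 rose. Ccl7 went from an early median of 3.04 to a late one of 0.75 (change -2.08 ± 0.42, adjusted p = 0.013), and Ccl12 from 2.73 to 1.16 (change -1.79 ± 0.46, adjusted p = 0.029, lost under quantile normalization). Ccl2, the classic monocyte attractant, was reduced from 2.89 to 1.36 and still called late (adjusted p = 0.039). Ccl9 persisted at 3.00 early and 3.40 late, and Ccl3 at 1.92 and 1.68. Ccl6 moved the other way, from a median of -0.34 to 0.41 (change 0.84 ± 0.18, adjusted p = 0.016). Among the 4 neutrophil-attracting CXC chemokines Cxcl2 was higher early (1.92 ± 0.30, adjusted p = 0.00069), and its change of -1.39 ± 0.43 did not pass (adjusted p = 0.052). On that list 0 changes passed in limma, with 1 of the 4 past 0.05 before adjustment, and the 2 Cxcl3 probes differed in sign.

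Proinflammatory and type 2 cytokines were mostly higher early. Of 13 interleukin 1 and 6 family genes and Tnf, 8 were higher and 3 lower early, 1 was higher and 1 lower late, and 3 fell and 2 rose. Tnf went from 0.48 to 2.00 early (median 1.29) to -0.12 to 0.34 late (median 0.17), without overlap, with a change of -1.17 ± 0.23 (adjusted p = 0.013). Il6 had a change of -1.55 ± 0.38 (adjusted p = 0.024), while Il18, an inflammasome product, rose from a median of -0.40 to 0.46 (change 0.97 ± 0.21, adjusted p = 0.017). Il1rn, the antagonist of interleukin 1, persisted at 2.88 early and 2.09 late. The calls on Il6 and Il18 were lost under quantile normalization.

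Of 12 type 2 genes, 10 were higher early and 3 late, and 3 fell. Il13, the cytokine that drives mucus, had early differences of 0.43 to 1.56 (median 1.16) and late ones of -0.59 to 0.59 (median 0.13), with a change of -1.04 ± 0.19 (adjusted p = 0.011). Its decoy receptor Il13ra2 went from a median of 2.11 to 0.52 (change -1.35 ± 0.35, adjusted p = 0.029, lost under quantile normalization). Il13ra1, a signalling receptor chain, fell by 0.38 ± 0.09 (adjusted p = 0.023), with 1 of its 4 probes moving the other way and the call lost under quantile normalization. Retnla, a product of alternatively activated macrophages, persisted at 2.86 and 2.15, and so did Il1rl1, the Il33 receptor, at 1.24 and 0.94. Among 11 immediate early genes 6 were higher early and 2 late. Junb (change -0.62 ± 0.15, adjusted p = 0.025) and Ier3 (-0.68 ± 0.17, adjusted p = 0.027) fell, with both calls lost under quantile normalization, and Egr2 persisted at 2.10 and 1.45.

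A few neutrophil markers fell. Cd177, a surface protein of neutrophils, ranged from 0.60 to 2.45 early (median 1.55) and from -0.47 to 0.59 late (median -0.18), with a change of -1.62 ± 0.29 (adjusted p = 0.010). Lcn2, the iron-binding lipocalin made by neutrophils and epithelium, went from a median of 3.65 to 0.84 (change -2.36 ± 0.50, adjusted p = 0.016). S100a8 and S100a9, the calprotectin subunits, had early effects of -0.28 and -0.17 that did not pass. In all, 4 of 13 were higher and 1 lower early, and 3 fell, against 24.8%, 21.6% and 10.2% of all genes. Cxcr2, the third that fell (-0.81 ± 0.24, adjusted p = 0.048), was called under 4 of 16 other settings.

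Several acute phase and secreted defence proteins fell. Orm1, an acute phase glycoprotein, ranged from 1.18 to 6.68 early (median 3.38) and from -1.30 to 0.81 late (median -0.41). The periods did not overlap, and the change was -4.05 ± 0.89 (adjusted p = 0.017). Reg3b, a secreted antibacterial lectin, ranged from 2.56 to 4.31 early (median 3.68) and from -0.53 to 1.68 late (median 0.11), with a change of -3.24 ± 0.42 (adjusted p = 0.0052). Its relative Reg3g fell by 1.15 ± 0.17 (adjusted p = 0.0063). Of the 11 genes on the list 6 were higher and 1 lower early, 1 was higher late, and 4 fell and 1 rose. On day 7 Orm1 already lay below vehicle in each material, at -1.66, -0.83 and -0.92, and counted with the early days its call was lost.

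Other genes that faded most from high had varied roles. F7, coagulation factor VII, ranged from 0.79 to 4.75 early (median 4.17) and from -0.41 to 0.80 late (median 0.66), with a change of -3.27 ± 0.53 (adjusted p = 0.0083). CNF3 on day 3 was its low early value, just within the late range. Calcb, a calcitonin gene-related peptide, ranged from 2.44 to 4.68 early (median 3.76) and from -0.06 to 1.5 late (median 0.71), with a change of -2.97 ± 0.30 (adjusted p = 0.0045). Calcb was still at 3.95, 3.55 and 2.88 on day 7. Ubd, a ubiquitin-like protein induced by cytokines, went from a median of 2.93 to 0.28 (change -2.80 ± 0.49, adjusted p = 0.0097), and Wfdc18, a whey acidic protein family member, from 2.87 to -0.21 (change -3.07 ± 0.52, adjusted p = 0.0087).

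Of 15 interferon-stimulated genes, 5 were higher and 1 lower early, none passed late (limma, 1 at an unadjusted p under 0.05) and 2 fell, shares near the 24.8% of all genes higher early and the 10.2% that fell. These were the lymphocyte attractants Cxcl11, with early and late medians of 2.96 and 0.44 (change -2.61 ± 0.46, adjusted p = 0.010), and Cxcl10, with 2.07 and -0.21 (change -2.21 ± 0.43, adjusted p = 0.012). C3, the central complement component, fell from 1.5 to 0.25 by medians (change -1.26 ± 0.24, adjusted p = 0.012), while Serping1, the inhibitor of C1, rose from -0.20 to 0.63 (change 1.01 ± 0.21, adjusted p = 0.016). C1r fell by 0.58 ± 0.13 (adjusted p = 0.018). Of 9 complement genes 4 were higher and 1 lower early and 2 higher late, against 24.8%, 21.6% and 3.16% of all genes.

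Ciita, the master activator of MHC class II genes, had early differences of 0.39 to 1.09 (median 0.87) and late ones of -0.19 to 0.15 (median 0.00), with a change of -0.80 ± 0.12 (adjusted p = 0.0071). The periods did not overlap. RT1-Bb also fell (-1.82 ± 0.47, adjusted p = 0.028), but 1 of its 2 probes had a change of 0.44 and the other of -4.09, and the call was lost under quantile normalization. Of 7 genes of the list 3 were higher early, and none passed late (limma, 1 at an unadjusted p under 0.05).

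Most genes of dividing cells were higher early and fell. Of 20 cell cycle and mitosis genes, 19 were higher early, none passed late (limma, 0 at an unadjusted p under 0.05) and 14 fell, while 6 changes did not pass. The list's median was 1.19 early, 0.70 on day 7 and 0.09 late, and the median change was -1.14 against -0.03 over all genes. It was -0.74 with 8 called falls under quantile normalization. Kif11, a spindle motor, ranged from 1.30 to 2.38 early (median 1.60) and from -0.52 to 0.64 late (median 0.28), with a change of -1.51 ± 0.24 (adjusted p = 0.0074). Ccna2, cyclin A2, went from a median of 1.67 to 0.20 (change -1.65 ± 0.28, adjusted p = 0.0090), and Top2a, topoisomerase II alpha, from 1.42 to 0.04 (change -1.55 ± 0.28, adjusted p = 0.011). Neither Kif11 nor Ccna2 nor Top2a had overlapping periods, which their choice by the smallest p for the change favours. The list's median change in the vehicle arrays themselves was -0.70, and its part in the result was not tested. Of 7 cholesterol synthesis genes 6 were higher early, none passed late (limma, 0 at an unadjusted p under 0.05), and Mvd (change -1.12 ± 0.22, adjusted p = 0.012) and Idi1 (-0.56 ± 0.14, adjusted p = 0.023, lost under quantile normalization) fell.

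**Figure D4:**
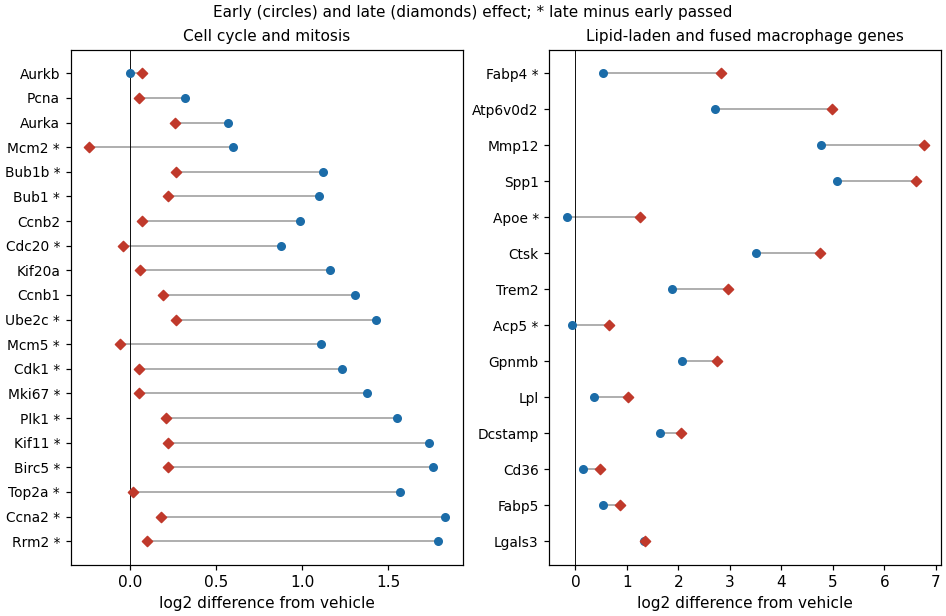
Early (circles) and late (diamonds) mean log2 difference from vehicle for each gene of the cell cycle list (left, 20 genes) and of the lipid-laden and fused macrophage list (right, 14 genes), with an asterisk where late minus early passed. The 14 marked cell cycle genes end below their early values, and the 3 marked macrophage genes, Fabp4, Apoe and Acp5, end above their early values.

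Airway lining genes split between fading and persistence. All 9 genes of airway oxidant defence and induced transport were higher early and 5 late, and 5 fell, with medians of 1.84 early and 0.98 late. Slc5a5, the iodide carrier, ranged from 3.24 to 6.80 early (median 5.05) and from 0.23 to 4.26 late (median 1.85). The ranges overlapped, since CNF1 on day 30 lay above the early values of CNF3 on day 3 and CNF2 on day 1, and the change was -3.14 ± 0.59 (adjusted p = 0.011), lost under quantile normalization. Duox2, which makes hydrogen peroxide at the airway surface, went from a median of 2.89 to 0.30 (change -2.72 ± 0.54, adjusted p = 0.013), and Lpo, the peroxidase that uses it, had effects of 1.84 and -0.33 (change -2.17 ± 0.46, adjusted p = 0.016). Muc5ac, an airway mucin, ranged from 0.74 to 2.76 early (median 1.80) and from -0.41 to 0.33 late (median -0.09), with a change of -1.89 ± 0.29 (adjusted p = 0.0070). Slc26a4, the anion exchanger pendrin, was reduced from 4.42 to 2.78. Duox1 (1.13 early, 1.11 late) and Sctr, the secretin receptor, persisted, Sctr with ranges of 1.79 to 5.85 early (median 2.18) and 2.94 to 5.66 late (median 4.84).

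Many lung P450 enzymes were lower early and rose. Of 15 cytochrome P450 and xenobiotic enzymes, 11 were lower early and 1 late, and 8 rose and 1 fell, with medians of -1.03 early and -0.30 late. Inmt, an amine methyltransferase abundant in lung, ranged from -3.84 to -1.58 early (median -2.75) and from -0.40 to 0.28 late (median -0.02). The periods did not overlap, and the change was 2.69 ± 0.31 (adjusted p = 0.0047). Cyp2f4, a P450 of club cells, went from a median of -2.69 to -0.34 (change 1.90 ± 0.30, adjusted p = 0.0078), Cyp4b1 from -1.52 to -0.31 (1.23 ± 0.18, adjusted p = 0.0065) and Cyp2a3 from -2.84 to -0.40 (2.28 ± 0.42, adjusted p = 0.011). Baat, a bile acid conjugating enzyme, rose by 2.09 ± 0.47 (adjusted p = 0.018), Serpinb10 by 2.02 ± 0.41 (adjusted p = 0.014) and Esm1, an endothelial proteoglycan, by 1.82 ± 0.31 (adjusted p = 0.0090).

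All 7 alveolar type 1 markers were lower early (median -0.72), none passed late (limma, 2 at an unadjusted p under 0.05, median -0.15), and Akap5 (0.57 ± 0.12, adjusted p = 0.017) and Cav1, of caveolae (0.55 ± 0.16, adjusted p = 0.043), rose. Scgb1a1, the main secretory protein of club cells, ranged from -1.18 to -0.56 early (median -0.82) and from -0.39 to 0.30 late (median -0.06), with a change of 0.78 ± 0.14 (adjusted p = 0.010). Of its list of 9 club and goblet genes 5 were lower early and 1 late, 3 rose, and Spdef, a goblet cell factor, fell by 0.45 ± 0.08 (adjusted p = 0.011, lost under quantile normalization). Of 10 ciliated cell genes 5 were lower early, and 0 late effects and 0 changes passed in limma, against 0 and 4 before adjustment. Of 12 endothelial genes 8 were lower early, Ednrb, an endothelin receptor, rose by 0.65 ± 0.17 (adjusted p = 0.028), and Eng, endoglin, persisted low at -0.90 and -0.54. Of 10 type 2 cell markers 2 were higher and 2 lower early, shares near the 24.8% and 21.6% of all genes. Etv5 rose by 0.36 ± 0.09 (adjusted p = 0.022, lost under quantile normalization).

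The natural killer list had more called changes than the T and B cell lists. Of 9 cytotoxic markers 7 were lower early (median -0.56), none passed late (limma, 1 at an unadjusted p under 0.05, median 0.01) and 6 rose. Gzma, granzyme A, ranged from -1.73 to -0.56 early (median -0.75) and from -0.25 to 0.31 late (median 0.08), with a change of 0.92 ± 0.19 (adjusted p = 0.014). Ncr1, an activating receptor of these cells, rose by 0.77 ± 0.18 (adjusted p = 0.020). Of 11 T cell markers 1 was higher and 2 lower early, against 24.8% and 21.6% of all genes. Cd4 changed by 0.85 ± 0.26 (adjusted p = 0.049, lost under quantile normalization). Of 7 B cell markers 4 were lower early and 2 late, and Fcer2, the low-affinity IgE receptor, fell from a median of 0.75 to -0.42 (change -0.94 ± 0.16, adjusted p = 0.0084).

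Some matrix genes fell and some proteases persisted. Of 14 extracellular matrix and fibrosis genes 6 were higher and 3 lower early, 1 was lower late and 4 fell. The shares of all genes were 24.8% higher and 21.6% lower early, 2.6% lower late and 10.2% that fell. Thbs1, thrombospondin 1, ranged from 0.55 to 2.62 early (median 2.34) and from -0.34 to 0.78 late (median -0.03), with a change of -2.05 ± 0.26 (adjusted p = 0.0052). Tnc, the repair matrix protein tenascin C, ranged from 0.51 to 1.64 early (median 1.39) and from -0.90 to -0.15 late (median -0.47), with a change of -1.79 ± 0.20 (adjusted p = 0.0045). All 6 late Tnc differences were below vehicle, and the late effect of -0.54 did not pass (adjusted p = 0.054). Col1a1, a fibrillar collagen, had effects of 0.13 and -0.23, neither called. In the vehicles themselves the list's median change was -0.66, and its part in the result was not tested.

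Of 13 matrix proteases and inhibitors 7 were higher and 5 lower early, 5 were higher late, and Timp1, an inhibitor of the proteases, fell from a median of 1.54 to 0.12 (change -1.33 ± 0.28, adjusted p = 0.016). Under quantile normalization the Timp1 change was -0.71 (adjusted p = 0.046). Mmp12, the macrophage elastase, ranged from 3.68 to 7.35 early (median 3.91) and from 4.55 to 7.89 late (median 7.05), with a change of 1.99 ± 0.80 that did not pass (adjusted p = 0.12). By material the change was 0.15 for CNF1, 1.82 for CNF2 and 4.00 for CNF3. Mmp7, matrilysin of airway epithelium, ranged from 3.57 to 8.72 early (median 5.15) and from 2.38 to 6.24 late (median 4.93), with a change of -1.28 ± 0.95 (adjusted p = 0.41). The median of the single changes on the list was 0.18, although the list's median was lower late (0.20) than early (0.52).

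None of the macrophage genes of lipid storage, fusion and lysosomes was called as falling. Of 14 lipid-laden and fused macrophage genes 9 were higher early and 13 late, and 3 rose, with medians of 1.49 early, 2.83 on day 7 and 2.40 late. The median change was 0.91, 0.94 under quantile normalization and 1.3 with array weights. With array weights, a setting chosen after seeing the data, 12 of the 14 were called as rising. A change that was not called in the main fit is thus not shown to be 0. Spp1, osteopontin, ranged from 3.08 to 7.33 early (median 5.02) and from 4.77 to 7.67 late (median 7.16), with overlap and a change of 1.55 ± 0.80 (adjusted p = 0.22). Ctsk, the collagen-cutting cathepsin of osteoclasts, had effects of 3.51 and 4.75, and Atp6v0d2, a proton pump subunit of fusing cells, 2.70 and 4.98. Gpnmb, a membrane protein of loaded macrophages, persisted at 2.06 and 2.75, and Trem2, a lipid-sensing receptor, at 1.87 and 2.97.

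The 3 genes of that list called as rising in the main fit had no called early effect. Apoe, which carries cholesterol out of macrophages, ranged from -0.67 to 0.50 early (median -0.13) and from 0.62 to 1.66 late (median 1.40), without overlap, with a change of 1.40 ± 0.22 (adjusted p = 0.0071). Fabp4, a fatty acid binding protein, ranged from -0.92 to 1.68 early (median 0.56) and from 1.37 to 4.01 late (median 3.01), with a change of 2.30 ± 0.50 (adjusted p = 0.016). For CNF1, CNF2 and CNF3 Fabp4 stood at 0.03, -0.92 and -0.01 on day 1, but at 1.28, 1.09 and 1.68 on day 3. Acp5, tartrate-resistant acid phosphatase, rose by 0.71 ± 0.18 (adjusted p = 0.028, lost under quantile normalization). On day 7 Apoe was already at 2.13, 1.34 and 1.10 and Fabp4 at 3.51, 2.75 and 2.28, and with day 7 counted as early neither call remained.

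Of 14 lysosomal genes 8 were higher and 1 lower early, 9 were higher late and 3 rose. Under quantile normalization 1 was called as rising, and 8 with array weights. Lipa, the lysosomal lipase, went from a median of 0.32 to 1.27 (change 0.83 ± 0.24, adjusted p = 0.040), and Hexa, a hexosaminidase, from -0.07 to 0.53 (0.66 ± 0.18, adjusted p = 0.038, lost under quantile normalization). The proteases Ctsb, Ctss and Ctsz persisted, with late effects of 0.66, 1.12 and 0.89. Among 12 general macrophage and monocyte markers, 5 were higher and 2 lower early and 4 higher late, against 24.8%, 21.6% and 3.16% of all genes. Cd163, the haemoglobin scavenger receptor, fell from a median of 1.86 to -0.11 (change -1.86 ± 0.32, adjusted p = 0.0091), and Ccr2, the receptor of recruited monocytes, had a change of -1.03 ± 0.25 (adjusted p = 0.024). Mrc1, the mannose receptor, rose from -0.17 to 0.50 (0.75 ± 0.16, adjusted p = 0.015) and Adgre1, the F4/80 antigen, from -0.77 to 0.37 (0.96 ± 0.23, adjusted p = 0.023), both lost under quantile normalization. Cd68, a lysosomal macrophage marker, persisted at 1.39 and 1.63.

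The genes that grew most were led by Mt3, a metallothionein, which binds zinc and copper. It ranged from -0.03 to 1.34 early (median 0.41) and from 4.71 to 8.19 late (median 6.55), with no overlap. The change was 6.05 ± 0.41 (adjusted p = 0.00066), the largest in size of the genes named here, and it was the call that was lost only without CNF2. Its relatives Mt1 and Mt2A, by contrast, were higher early (0.81 and 0.92) and at 0.48 each late, with changes of -0.33 and -0.43 that did not pass. On day 7 Mt3 stood at 5.59, 4.59 and 5.01. Of 12 metal and iron genes 8 were higher and 1 lower early, 4 were higher late, and 2 rose and 1 fell. Slc39a14, a zinc and iron importer, fell by 0.72 ± 0.19 (adjusted p = 0.033) and Fth1, ferritin heavy chain, rose by 0.47 ± 0.11 (adjusted p = 0.024), both lost under quantile normalization.

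Mlana, known as a melanosome protein of pigment cells, ranged from 0.44 to 2.68 early (median 1.04) and from 2.07 to 6.39 late (median 5.10), with a change of 3.41 ± 0.58 (adjusted p = 0.0090). The periods overlapped, and by material the change was 1.65 for CNF1, 3.37 for CNF2 and 5.21 for CNF3. Cst6, a cysteine protease inhibitor, ranged from -0.43 to 0.41 early (median -0.16) and from 1.47 to 5.29 late (median 2.93), with a change of 3.20 ± 0.48 (adjusted p = 0.0063). Gcgr, the glucagon receptor, ranged from -0.29 to 0.58 early (median 0.10) and from 1.49 to 2.99 late (median 1.87), with a change of 1.99 ± 0.22 (adjusted p = 0.0045). Neither Cst6 nor Gcgr had overlapping periods. Glt6d1, a glycosyltransferase family member, rose by 2.10 ± 0.55 (adjusted p = 0.031). Apoa4, an apolipoprotein named here after its values were seen, had a change of 4.18 ± 1.02 (adjusted p = 0.024) with late differences of -0.98 to 7.00.

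Of 8 mast cell and eosinophil markers, 2 rose, 1 fell and 5 changes did not pass, against 6.59% of all genes that rose and 10.2% that fell. Cpa3, the mast cell carboxypeptidase, ranged from -1.08 to 0.62 early (median -0.46) and from 0.77 to 2.41 late (median 1.36), with a change of 1.79 ± 0.33 (adjusted p = 0.011). Fcer1a, the binding chain of the high-affinity IgE receptor, ranged from -1.30 to 0.60 early (median -0.13) and from 0.76 to 2.44 late (median 1.41), with a change of 1.84 ± 0.33 (adjusted p = 0.011). No late value of either lay within the early range. Ms4a2, the beta chain of that receptor, was named after its values were seen and rose by 1.52 ± 0.30 (adjusted p = 0.013). Kit and Cma1, the other mast cell genes listed, had changes of 0.30 ± 0.15 and 0.44 ± 0.27 that did not pass. On the list 3 were higher and 1 lower early and 3 higher late, against 24.8%, 21.6% and 3.16% of all genes. Prg2, the eosinophil major basic protein, fell by 0.61 ± 0.17 (adjusted p = 0.040, lost under quantile normalization). With day 7 counted as early the calls on Cpa3 and Fcer1a were lost.

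Few genes grew low, and their changes were small. Siglech, a plasmacytoid dendritic cell receptor, had a late effect of -1.06 and a change of -1.28 ± 0.37 (adjusted p = 0.042). Klk1b3, a kallikrein, changed by -1.05 ± 0.17 (adjusted p = 0.0085), with early differences of -0.26 to 0.73 and late ones of -1.11 to -0.55. Tmem119, a membrane protein of bone and microglia, changed by -0.82 ± 0.18 (adjusted p = 0.016) and Adra1d, an adrenergic receptor, by -0.81 ± 0.17 (adjusted p = 0.015). The calls on Siglech, Tmem119 and Adra1d were lost under quantile normalization. Genes that persisted low were Tas2r118 (-2.24 early, -1.55 late) and Or2y1i (-2.02, -1.36), a taste and an odorant receptor, Ostn, a secreted peptide of bone and muscle (-1.28, -1.18), and Marchf11, a ubiquitin ligase (-1.57, -1.15).

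Of 10 glucocorticoid-induced and of 12 clock genes 2 each rose, against 6.59% of all genes higher and 10.2% lower, and the shares called in either direction were near those of all genes. Sgk1, a kinase induced by glucocorticoids, ranged from -0.36 to 0.00 early (median -0.11) and from 0.36 to 0.82 late (median 0.60). Its periods did not overlap, both effects were called on opposite sides (adjusted p = 0.035 early and 0.00069 late), and the change was 0.75 ± 0.07 (adjusted p = 0.0045). Of the 10 glucocorticoid-induced genes 3 were higher and 2 lower early, 3 were higher late. Tsc22d3 was the other that rose, with 0.49 ± 0.13 (adjusted p = 0.030, lost under quantile normalization). Bmal1, a core clock factor, ranged from -1.03 to -0.56 early (median -0.73) and from -0.23 to -0.01 late (median -0.15), with a change of 0.62 ± 0.09 (adjusted p = 0.0065). Npas2, its partner, rose by 0.54 ± 0.11 (adjusted p = 0.016, lost under quantile normalization). Of 12 clock genes 3 were higher and 5 lower early and 1 higher late. Of all genes 24.8% were higher and 21.6% lower early, and 3.16% were higher late.

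Antioxidant genes moved in both directions. Of 11 NRF2 targets 6 were higher and 3 lower early, 2 were higher late, and 3 fell and 1 rose. The shares of all genes were 24.8%, 21.6%, 3.16%, 10.2% and 6.59% in the same order. Sod2, the mitochondrial superoxide dismutase, went from a median of 1.93 to 0.48 (change -1.37 ± 0.28, adjusted p = 0.014), and Gpx2, a glutathione peroxidase, from 1.17 to -0.26 (-1.22 ± 0.23, adjusted p = 0.012). Gsta1, a glutathione transferase, ranged from -1.31 to -0.77 early (median -1.16) and from -0.29 to 0.05 late (median -0.22), with a change of 0.92 ± 0.10 (adjusted p = 0.0045). Slc7a11, the cystine importer, was higher early (4.93) and late (2.69), and its change of -2.24 ± 0.74 did not pass (adjusted p = 0.066). Hmox1, haem oxygenase, persisted at 1.36 and 1.02.

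Genes of heart muscle and red cells, which can enter a lung sample with vessel walls or blood, were also examined. Of 12 cardiac muscle genes 5 were lower early, none passed late (limma, 1 at an unadjusted p under 0.05) and Actc1 changed by -0.41 ± 0.12 (adjusted p = 0.045, lost under quantile normalization). The median was -0.45 early and -0.21 late. Of 4 red blood cell genes 3 were lower early (median -0.53), and no late effect or change passed (limma, 1 and 0 at an unadjusted p under 0.05). Under quantile normalization 3 of these 4 were called as rising, with a median change of 0.83 against 0.36 in the main fit. In the cardiac list 2 genes were called as rising there. The part of either list in the results was not tested.

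**Figure D5:**
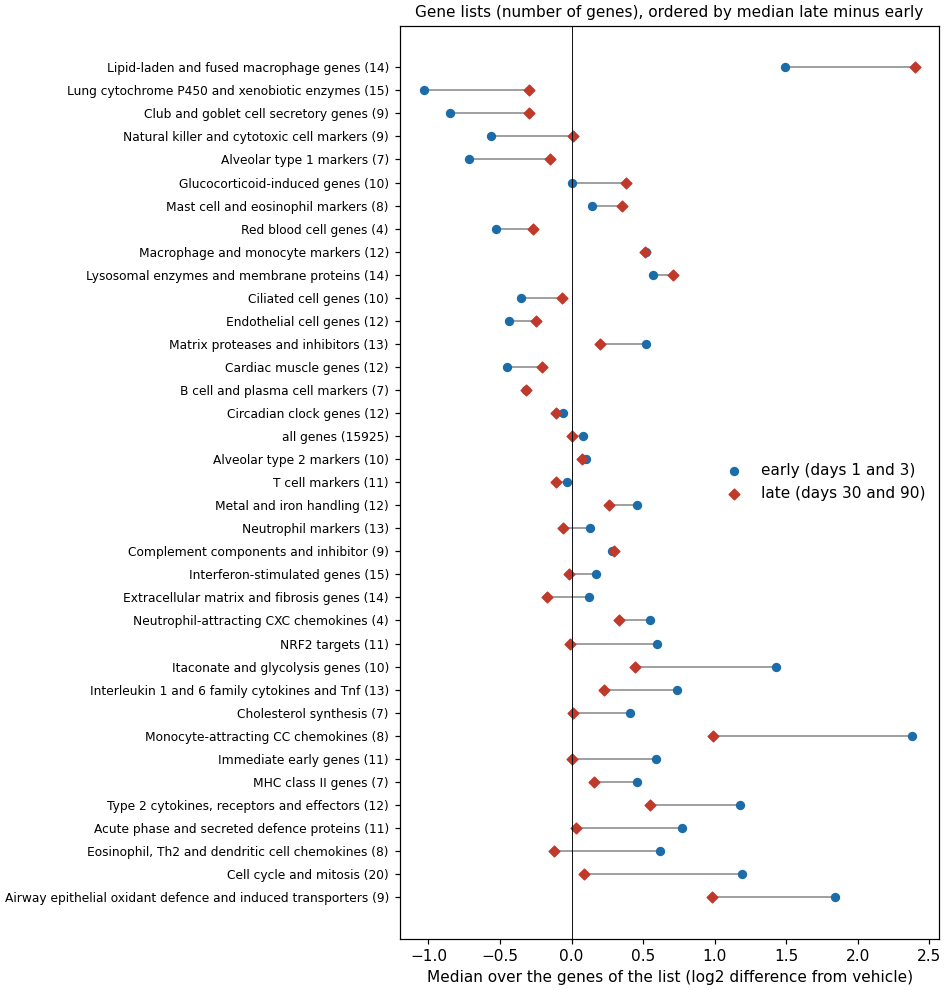
Median over the genes of each list (number of genes in parentheses) of the early (circle) and late (diamond) log2 difference from vehicle, ordered by the median of the single changes. Cell cycle genes run from 1.19 to 0.09 and P450 enzymes from -1.03 to -0.30 toward 0, while the lipid-laden and fused macrophage list runs from 1.49 to 2.40.

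The 3 materials were compared for the size of their change. No gene passed the test of material by period (limma, 0%, 271 genes at an unadjusted p under 0.05, smallest adjusted p = 1), which had 6 residual degrees of freedom. The 4 genes with the smallest p were Or52s19, Mcoln3, Krt75 and Rnf152. Mcoln3, a lysosomal cation channel, had late minus early values of 0.51 for CNF1, 1.98 for CNF2 and 3.16 for CNF3, and Krt75, a keratin, of 0.05, 0.84 and 3.13. A missed threshold does not show that the materials acted alike.

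The nanotube arrays, with vehicles of their own, gave 4 further differences. The response size of MWCNT was 0.449 and 0.486 early and 0.486 and 0.520 late. For the difference between cellulose and nanotubes in the late minus early change, no gene passed (limma, 0%, 1151 genes at an unadjusted p under 0.05, smallest adjusted p = 0.142), which does not show that they acted alike. Nanotube late minus early came from the same joint limma fit, where most of the spread estimate rests on the cellulose differences. It was called for 4 genes, Sgk1 (0.85 ± 0.12), Or4k5 (1.95 ± 0.26) and, named after their values were seen, Igf1 (0.93 ± 0.11) and Slc47a1 (2.25 ± 0.31), each with an adjusted p of 0.043. After cellulose Or4k5 had a change of -0.24 ± 0.15 that did not pass. Genes that faded from high after cellulose had nanotube medians of 0.39 early and 0.10 late, and 87.6% of them changed in the same direction, against 65.3% of all genes. Genes that persisted high had 0.44 and 0.85, and genes that grew high 0.03 and 0.56. Mt3 stood at 0.21, 0.84, 3.16 and 2.87 on days 1, 3, 30 and 90 after nanotubes, and Cst6 at -0.14, -0.25, -0.66 and -0.70. Lpo stood at 1.15, 0.35, 2.82 and 5.24 there, and its cellulose minus nanotube change was -5.45 ± 1.04 (adjusted p = 0.33). The 4 genes with the smallest p for that difference were Or4k5 (-2.19 ± 0.30, adjusted p = 0.14), C4bpb (-1.47 ± 0.24), Actrt3 (1.55 ± 0.26) and Qsox1 (-1.05 ± 0.18), the last 3 with an adjusted p of 0.31.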

How the data were processed

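The 80 arrays were one-colour Agilent rat arrays of lung RNA. As deposited by the authors, the log2 values were normalized and centred on each probe, with base 2 assumed here because no source states it. The submitters' processing notes name Agilent Feature Extraction 12.0.3.1. The single files and the series table were equal (largest difference 0.0). Spot signals and scanner information were not used here, and the number of arrays limits the precision (median SE 0.142 for late minus early).

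Of 41012 rat probes, 20932 had 1 gene symbol and 20080 none in the platform annotation. Symbols were updated through accessions (17424 probes) or synonyms (398), 3104 were current and 6 kept. Probes were averaged per symbol (15925 genes, 3909 with more than 1 probe). The 2.0 mg/kg minus vehicle differences of CNF1, CNF2 and CNF3 were fitted with limma 3.58.1 in R 4.3.3 (lmFit, eBayes), with a mean per period and material as a block (8 residual degrees of freedom), and adjusted by Benjamini-Hochberg over all genes at 0.05. Response size was tested by exact permutation. The steps were tested on simulated data.

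Members and 36 gene lists were chosen with earlier results of these data known. Named genes were, among those with every difference of the relevant period or periods on one side, the 10 and 6 that faded from high and low with the largest change, the 6 high and 4 low that persisted with the largest smaller of the early and late effects, the 6 and 4 that grew high and low with the largest change, up to 3 per list by p, and 4 for each comparison of materials; a few others are named as examples of a list. Alternatives were quantile normalization, the mean of the 3 vehicles, no material term, trend and robust fits, a control spot factor, day 7 as early, every probe, a 2-fold minimum, array weights, the late differences alone, and leaving out each material, day or early CNF1 pair. Tables were made with pandas 2.3.3 and numpy 2.4.6 under Python 3.11.15, and figures with matplotlib 3.10.9.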

Additional observations from a re-analysis of the deposited data

Results flagged for a closer look

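Acod1 after CNF3 on day 3 was 2.22 above vehicle, while its other 5 early differences lay between 5.20 and 6.83. F7 in the same pair of arrays was 0.79, with the others between 3.71 and 4.75. Both were set apart by the gap to the nearest of the 6 values relative to their range. In all 74 sets of 6 differences were examined and 2 stood out, and chance gives about 1 in 20.

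Probes with no gene symbol entered no comparison above. In a fit of the same model to these probes alone, 790 of 20080 passed for late minus early (3.93%, 326 higher and 464 lower). Their largest rise was 4.14 and their largest fall -4.25. Of the 15925 genes, 6.59% were called higher and 10.2% lower in their own fit.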

How the results depend on the processing

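The count of genes called for late minus early (2674) was 1264 under quantile normalization (625 higher, 639 lower), 386 with a 2-fold minimum and 4107 of single probes, and lay between 1 and 2901 when a material, a day or an early CNF1 pair was left out. It was within 1.5 times under the mean of the 3 vehicles, no material term, trend and robust fits, the control spot factor, day 7 as early and array weights. The early count (7380) lay between 4405 and 6087 with a material or day left out. The late count (918) was 2146 under quantile normalization, 3113 with array weights and 1460 from the 6 late differences alone, and lay between 1 and 848 with a material or day left out, being 1 without CNF2, 2 without CNF3, 1 without day 30 and 6 without day 90. Faded genes (2493) numbered 1138 under quantile normalization and 343 with a 2-fold minimum. Persisting genes (593) numbered 1438 and 1473 under quantile normalization and array weights, and grown genes (94) numbered 374 with array weights. The difference in response size (-0.21) lay between -0.298 and -0.109 without a material. Fits with fewer differences have fewer degrees of freedom, and other causes were not tested. None of the 112 calls on named genes changed sign, and 2669 of the 2674 genes kept theirs under quantile normalization. These genes were called from the same arrays, which favours kept signs. Array weights, the late differences alone and the early CNF1 pairs were chosen after seeing the data. With 1 array per group and no signal levels, small changes and dim probes cannot be judged.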
